A study of Sus scrofa with 8 samples.

Results

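The genes described are those of 10 plasma proteins that liver cells secrete and whose output changes in the acute phase response. They were listed as 3 negative (ALB, AHSG and TTR) and 7 positive (HP, HPX, LRG1, ORM1, LBP, CRP and ITIH4). This list was made with earlier results of these data known. Whether each gene responds in its listed direction in pigs was not tested here. The members are all probe sets of the Affymetrix porcine array to which the array annotation gives exactly 1 of these symbols. These are 13 of 23999 probe sets whose names do not start with the control prefix AFFX: ORM1 has 3, LBP has 2 and each other gene has 1. Of the 13, 12 were bright enough to be tested, and the dimmest probe set of ORM1 was not. Liver of 4 Korean native pigs (KNP), an indigenous breed, sampled at 7 months of age, was compared with liver of 4 Yorkshire pigs (YS), a commercial breed, sampled at 6 months. Each animal gave 1 array of RNA taken at the tip of the largest lobe of the liver, and all animals were raised under the same conditions, according to the labels. Breed and age cannot be told apart in this design, and sex, feeding state and health of single animals are not given in these sources. In whole tissue, fewer cells of a type and less RNA per cell cannot be told apart either.

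The acute phase response is the change in plasma proteins that follows infection or injury. Cytokines, mainly interleukin 6 and interleukin 1, act on hepatocytes through the transcription factors STAT3, C/EBP and NF-kappaB, and the output of positive acute phase proteins rises while that of negative ones drops. In pigs, ITIH4 is known as pig-MAP, the major acute phase protein of the species, and haptoglobin and CRP are measured in pig serum as signs of inflammation. Albumin, transthyretin and fetuin-A are negative acute phase proteins, and they are among the most abundant products of a healthy liver.

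The arrays differed in ways that touch the brightest transcripts. A value is the deposited intensity on a linear scale. A difference is KNP minus YS on the scale of log2(intensity + 16), from limma, with its standard error (SE). A probe set was called at a p under 0.05 after Benjamini-Hochberg adjustment over the 14399 probe sets tested. Of these, 0.611% were called lower in KNP and 0.424% higher, and all 4 KNP values lay below all 4 YS values in 5.67% and above them in 4.01%. In the 68 probe sets with a mean of 15 to 17 on this log2 scale, 54.4% were called lower, 0% were called higher, and 89.7% had all KNP values below all YS values. The median difference over these 68 was −0.58, against −0.01 over all probe sets tested. The geometric mean of 27 spiked hybridization control probe sets, which do not come from liver, was 4294 ± 643 on KNP arrays and 7546 ± 970 on YS arrays (SD, n = 4 per breed; two-sided exact permutation p = 0.0286, the lowest value possible with 35 splits). The actin control signals at the 3' end, divided by those at the 5' end, give a ratio that grows with RNA breakdown. It was 4.83 ± 1.88 on KNP arrays and 10.5 ± 1.45 on YS arrays (SD, n = 4 per breed; two-sided exact permutation p = 0.0286). The same ratio for the GAPDH control was 3.04 ± 0.705 on KNP arrays and 3.5 ± 0.407 on YS arrays (SD, n = 4 per breed), and it did not pass the test (two-sided exact permutation p = 0.3143). The part of these controls in the members' differences was not tested. Hepatocyte RNA was present at high levels on every array: the summed intensity of 7 hepatocyte markers that are no members (APOB, APOH, APOA2, CPS1, ARG1, VTN and KNG1) ran from 171213 to 197090 in KNP and from 243148 to 263679 in YS. Of these 7 markers APOB (−0.54, limma adjusted p = 0.0397) and APOH (−0.56, adjusted p = 0.0362) were called lower and 0 higher, with a median difference of −0.42 as deposited and 0.05 after quantile normalization.

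The members did not move as 1 group. Of the 12 probe sets tested, ALB, AHSG and HP were called lower in KNP, LRG1 was called higher, and 8 were not called. In the negative class 2 of 3 probe sets were called lower and 0 higher, and in the positive class 1 of 9 was called lower and 1 higher. The median difference was −0.69 in the negative class and −0.45 in the positive class, beside −0.01 over all probe sets tested. All 3 negative probe sets, but not all positive ones, lie in the brightness range of 15 to 17, where the median was −0.58. After quantile normalization the class medians were −0.06 and 0.11, beside 0.003 over all probe sets tested. All 4 KNP values lay below all 4 YS values in ALB, AHSG, TTR, HP, HPX and the brightest probe set of ORM1, and above them in LRG1. The first 6 of these probe sets are also the members in the brightness range of 15 to 17, so their counts, 3 called and 6 without overlap, stand beside the 54.4% and 89.7% of that range. The plot of intensities by animal shows every value.

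**Figure D1:**
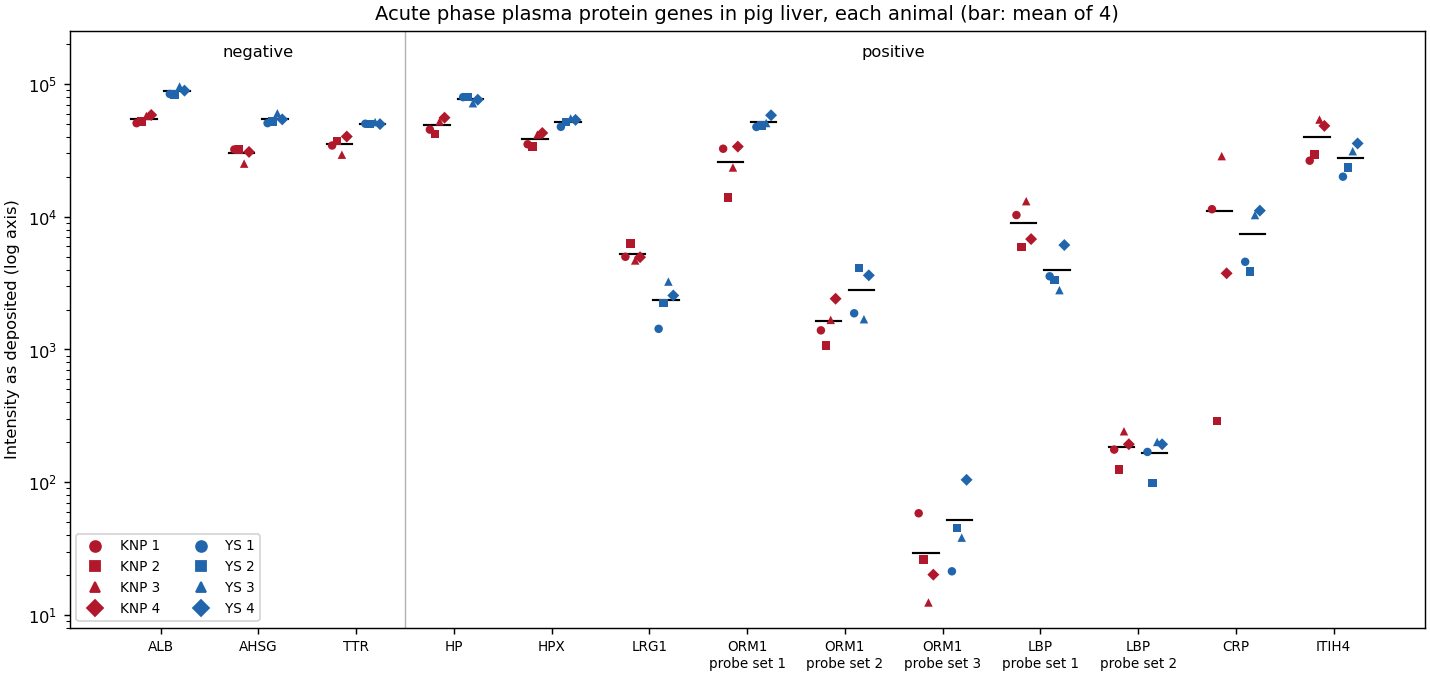
Intensity as deposited (log axis) of the 13 member probe sets in each animal, KNP in red to the left of YS in blue, with a bar at the mean of 4 animals. Probe sets of a gene are numbered from the brightest; KNP lies below YS without overlap in ALB, AHSG, TTR, HP, HPX and ORM1 probe set 1, and above it in LRG1, while CRP runs from 290 to 28641 within KNP.

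Among the negative acute phase genes, ALB encodes albumin, the main carrier and osmotic protein of plasma. ALB had intensities of 50730, 52085, 57491 and 58503 in KNP livers, against 84236, 83646, 95919 and 89247 in YS livers. The groups lay far apart, and the animals of a breed stayed close to each other, with a coefficient of variation of 7.07% in KNP and 6.45% in YS. The difference was −0.69 (SE 0.10, limma adjusted p = 0.0245), and ALB was the brightest probe set on 2 of 4 KNP arrays and 4 of 4 YS arrays. Without YS replicate 1, 2, 3 or 4 the call of ALB was lost, with adjusted p of 0.0793, 0.0536, 0.0839 and 0.0907, while the difference stayed between −0.72 and −0.65 with any animal left out.

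AHSG encodes fetuin-A, which binds calcium phosphate in plasma and keeps it from precipitating. AHSG measured 32152, 32135, 25148 and 30804 in KNP livers, against 50769, 52350, 60257 and 54189 in YS livers. KNP replicate 3 was the lowest animal and YS replicate 3 the highest, and the ranges were separated by a wide gap. AHSG fell by 0.86 on the log2 scale (SE 0.12, limma adjusted p = 0.0190), and its YS mean was 1.81 times its KNP mean. The call was lost without YS replicate 1, 3 or 4 (adjusted p = 0.0590, 0.0703 and 0.0762).

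TTR encodes transthyretin, which carries thyroxine and, with its partner RBP4, retinol. TTR had 34431, 37096, 29361 and 40236 in KNP livers, against 50238, 49951, 51657 and 49917 in YS livers. The YS animals were nearly alike, with a coefficient of variation of 1.63%, against 13.1% among the KNP animals, and the breeds did not overlap. The difference was −0.52 (SE 0.12, limma adjusted p = 0.0678), with a 95% interval from −0.78 to −0.27, and did not pass the threshold over all probe sets. Without KNP replicate 4 it was −0.59 and passed (adjusted p = 0.0496), as it did with the lower 60% of probe sets left out (−0.52, adjusted p = 0.0403) and with array weights (−0.53, adjusted p = 0.0436).

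HP and HPX clear the products of broken red cells: haptoglobin, from HP, binds free haemoglobin, and hemopexin, from HPX, binds free haem. HP had 45368, 42097, 52306 and 55815 in KNP livers, against 79701, 79577, 71702 and 76208 in YS livers. HP, a positive acute phase gene, was thus lower in every KNP animal than in any YS animal, and fell by 0.66 on the log2 scale (SE 0.12, limma adjusted p = 0.0345). This call was lost without KNP replicate 1 (adjusted p = 0.0729) and without YS replicate 1, 2, 3 or 4 (0.110, 0.0905, 0.0975 and 0.108), and with median centring (−0.58, adjusted p = 0.0542).

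HPX showed the same order with a smaller gap, at 35187, 33725, 41625 and 42790 in KNP livers, against 47609, 51973, 55067 and 53722 in YS livers. The lowest YS animal of HPX lay above the highest KNP animal. The difference was −0.45 (SE 0.12, limma adjusted p = 0.107; 95% interval −0.70 to −0.19) and did not pass.

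ORM1 encodes orosomucoid, or alpha-1-acid glycoprotein, a plasma protein that binds basic drugs. The brightest probe set of ORM1 measured 32560, 13961, 23517 and 33793 in KNP livers, against 47490, 48911, 50862 and 58212 in YS livers. KNP replicate 2 was the lowest, and the coefficient of variation was 35.5% in KNP and 9.28% in YS. The difference of this ORM1 probe set was −1.06 (SE 0.24, limma adjusted p = 0.0717), the most negative among the members. It did not pass with all animals and passed without KNP replicate 2, at −0.79 (adjusted p = 0.0434).

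The second probe set of ORM1 was dimmer, with 1393, 1068, 1671 and 2412 in KNP livers, against 1874, 4094, 1690 and 3620 in YS livers, and the breeds overlapped. Its difference, −0.74 (SE 0.32, limma adjusted p = 0.311), had the same sign. The third probe set of ORM1, left out by the filter on dim probe sets, ran from 12.4 to 58.3 in KNP and from 21.3 to 104 in YS.

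LRG1 encodes leucine-rich alpha-2-glycoprotein, a secreted protein induced in inflammation that binds the TGF-beta co-receptor endoglin. LRG1 measured 4994, 6288, 4685 and 4957 in KNP livers, against 1431, 2248, 3248 and 2553 in YS livers. Every KNP animal lay above every YS animal, and the spread was wider in YS (coefficient of variation 13.7% in KNP and 31.8% in YS). LRG1 rose by 1.19 (SE 0.23, limma adjusted p = 0.0401), a KNP mean 2.21 times the YS mean. The difference stayed between 0.97 and 1.36 with each animal left out in turn, but the call was lost each time, with adjusted p of 0.0603 to 0.110.

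LBP encodes the lipopolysaccharide binding protein, which hands bacterial endotoxin to CD14. The brighter probe set of LBP measured 10300, 5901, 13111 and 6788 in KNP livers, against 3560, 3340, 2800 and 6123 in YS livers. YS replicate 4 lay above KNP replicate 2, and all other YS animals lay below all KNP animals. The KNP mean of LBP was 2.28 times the YS mean, and the difference of 1.18 (SE 0.29, limma adjusted p = 0.0886; 95% interval 0.55 to 1.81) did not pass.

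The dimmer probe set of LBP lay near the array medians, from 124 to 242 in KNP and from 98.2 to 201 in YS, with a difference of 0.15 (SE 0.28, limma adjusted p = 0.838). The 2 probe sets of LBP thus gave different sizes, and the mean of both had a difference of 0.66. ITIH4, which belongs to the inter-alpha-trypsin inhibitor heavy chain family, measured 26453, 29498, 54000 and 48410 in KNP livers, against 20045, 23416, 31193 and 35699 in YS livers. KNP replicates 3 and 4 stood above all YS animals, and KNP replicates 1 and 2 lay within the YS range. The difference of ITIH4 was 0.49 (SE 0.25, limma adjusted p = 0.388; 95% interval −0.06 to 1.05) and did not pass.

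CRP encodes C-reactive protein, which binds phosphocholine on microbes and damaged cells. CRP varied most among the members, with 11405, 290, 28641 and 3749 in KNP livers, against 4578, 3855, 10299 and 11124 in YS livers. The highest and the lowest animal were both KNP, and the YS animals lay between them. The KNP mean was the higher, 11021 against 7464 in YS, while the difference on the log2 scale was negative, −0.61 (SE 1.09, limma adjusted p = 0.832; 95% interval −3.0 to 1.78). The sign of the CRP difference rested on KNP replicate 2: without this animal it was 0.67 (adjusted p = 0.641).

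To set each member beside probe sets of like brightness, the 200 tested probe sets nearest to it in mean log2 intensity were taken. For ALB, AHSG, TTR, HP and the brightest probe set of ORM1 these neighbours were nearly the same set of very bright probe sets, with a median difference of −0.47 and with 28.0% to 28.5% of them called lower. ALB had 29 neighbours with a more negative difference and 171 with a less negative one, HP had 34 and 166, and AHSG had 13 and 187. TTR and HPX lay in the middle of their neighbours, with 85 and 112 more negative ones. The brightest probe set of ORM1 stood near the low end, with 5. Among the 68 probe sets with a mean of 15 to 17, 49 were more negative than TTR and 55 more negative than HPX. The counts in that range were 16 for ALB, 19 for HP, 6 for AHSG and 2 for the brightest ORM1 probe set. ALB is itself the brightest probe set by mean, so all its neighbours were dimmer than it.

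In the other direction, LRG1 and the brighter probe set of LBP had differences above those of all 200 of their neighbours, whose median differences were −0.02 and −0.07. ITIH4 lay above 199 of its 200 neighbours, whose median was −0.46 and of which 25.0% were called lower. Among the 167 probe sets with a mean of 14 to 15, which include ITIH4, 165 had a more negative difference than ITIH4, and 55.7% had all KNP values below all YS values. CRP and the second probe set of ORM1 lay low among theirs, with 12 and 8 more negative neighbours. These positions are descriptions of the same 8 arrays and carry no test. The plot of differences against brightness shows these positions.

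**Figure D2:**
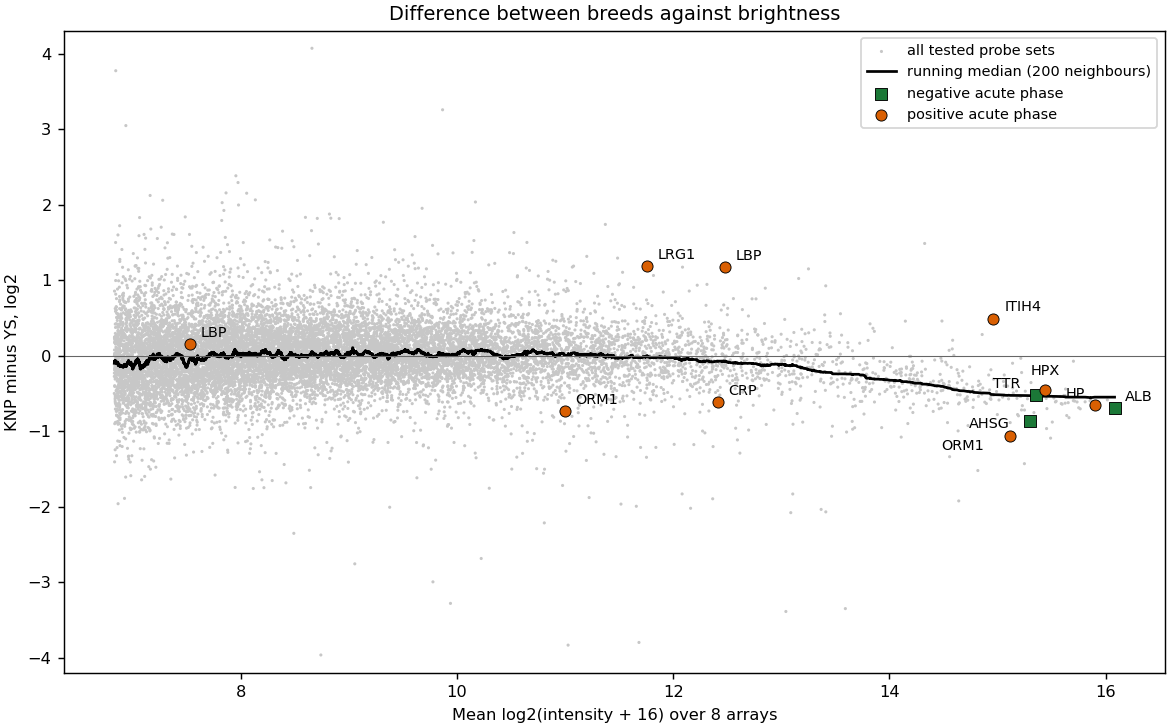
KNP minus YS difference on the log2 scale against mean log2(intensity + 16) over 8 arrays for the 14399 probe sets tested (grey), with a running median over a window of 200 neighbours, narrower at both ends (black line), and the 12 tested member probe sets (squares negative, circles positive acute phase). The line bends down at high brightness, where ALB, HP, HPX and TTR lie near it, AHSG and ORM1 below it and ITIH4 above it, while LRG1 and the brighter LBP probe set stand above a flat part of it.

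The median of the 200 neighbours was then taken off on each array, and the fit was repeated over all probe sets. In this fit 0 of 12 member probe sets were called, beside 0.0278% of all probe sets called lower and 0.0694% higher. At an unadjusted limma p under 0.05, 5 member probe sets were lower and 3 higher. The share of all probe sets at that unadjusted threshold was not counted, so these counts have no background beside them. All 4 KNP values lay below all YS values in ALB, AHSG and the brightest ORM1 probe set, and above them in LRG1 and ITIH4, beside 4.59% and 4.18% of all probe sets. The step did not remove the whole shift of the brightest probe sets. In the 68 with a mean of 15 to 17, which include ALB, AHSG, TTR, HP, HPX and this ORM1 probe set, a median difference of −0.15 was left. The differences shrank to −0.26 for ALB, −0.23 for HP, −0.10 for TTR, −0.02 for HPX, −0.43 for AHSG (SE 0.10, limma adjusted p = 0.116) and −0.64 for the brightest ORM1 probe set (adjusted p = 0.231). The second ORM1 probe set showed −0.75 (adjusted p = 0.352), against −0.74 as deposited. LRG1 kept its size, at 1.21 (SE 0.25, adjusted p = 0.0927), as did the brighter LBP probe set, at 1.25 (SE 0.29, adjusted p = 0.120). The difference of ITIH4 was 0.93 here (SE 0.25, adjusted p = 0.148), against 0.49 as deposited. On this scale ITIH4 read 0.22, 0.39, 1.28 and 0.89 in KNP, against −0.70, −0.42, −0.01 and 0.21 in YS, so the lowest KNP animal and the highest YS animal were almost equal.

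Quantile normalization, which gives all arrays the same distribution, gave differences of −0.06 for ALB, −0.06 for HP, 0.04 for TTR, 0.11 for HPX, −0.33 for AHSG and −0.58 for the brightest ORM1 probe set. LRG1 showed 1.19 there (SE 0.23, limma adjusted p = 0.0754), the brighter LBP probe set 1.26 (SE 0.31, adjusted p = 0.130) and ITIH4 0.92 (SE 0.23, adjusted p = 0.138). All KNP values lay above all YS values in LRG1 and ITIH4 and below them in AHSG, beside 4.13% and 4.69% of all probe sets. With this scaling 0 member probe sets were called, beside 0.0278% of all probe sets called lower and 0.0694% higher. At an unadjusted limma p under 0.05, 3 member probe sets were lower and 3 higher, and the share of all probe sets at that threshold was not counted. The sign was the same on the 3 scales in LRG1, both LBP probe sets, ITIH4, AHSG and both tested ORM1 probe sets. ALB, HP and CRP also kept their sign, with ALB and HP at only −0.06 after quantile normalization. TTR and HPX did not keep theirs.

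**Figure D3:**
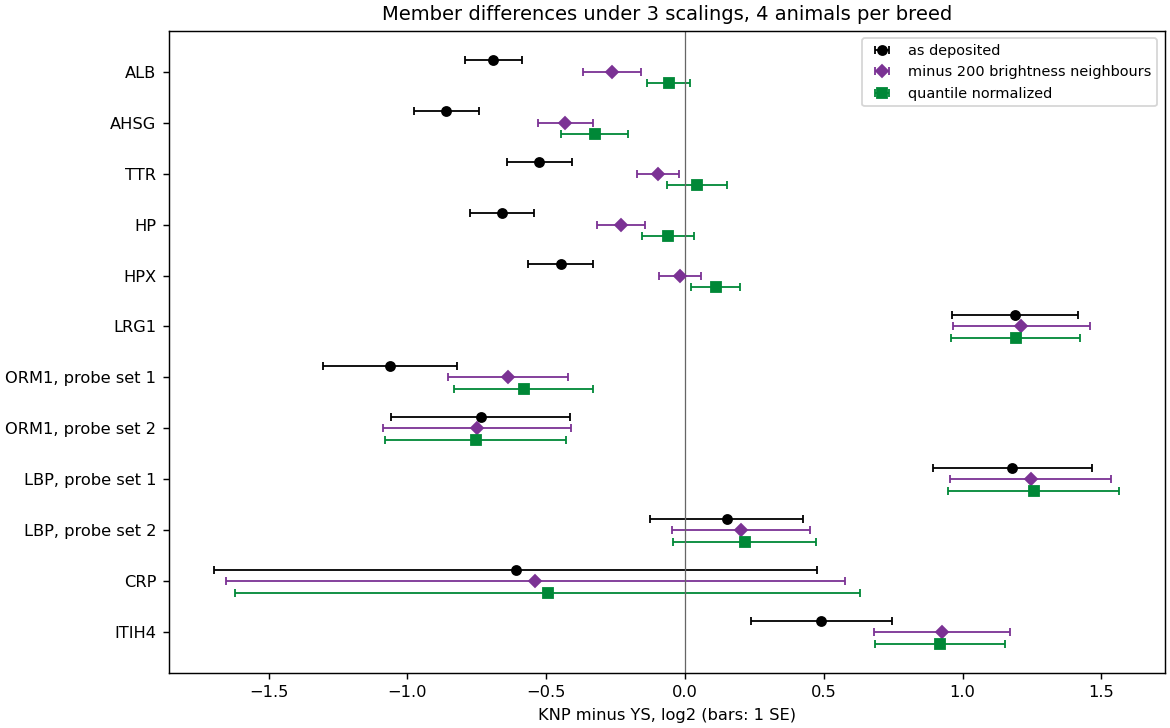
KNP minus YS differences on the log2 scale, with 1 SE, of the 12 tested member probe sets as deposited (black circles), after taking off the median of 200 brightness neighbours per array (purple diamonds) and after quantile normalization (green squares), 4 animals per breed. ALB and HP move to −0.26 and −0.23 with brightness neighbours and to −0.06 each with quantile normalization, LRG1 and LBP probe set 1 stay near 1.2, LBP probe set 2 stays near 0.2, and ITIH4 moves from 0.49 to above 0.9.

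The animals of a breed did not order the positive genes alike. Counting the brightest probe set of each of the 7 positive genes, KNP replicate 2 was the lowest of its breed in 5 and the highest in 1, which was LRG1. KNP replicates 3 and 4 were the highest in 3 genes each, and KNP replicate 1 in 0. KNP replicate 3 was the highest KNP animal in LBP, CRP and ITIH4 and the lowest in the negative genes AHSG and TTR. Within YS, replicate 4 was the highest in 4 of 7 positive genes and replicate 1 the lowest in 4. On the brightness-adjusted scale the order of KNP replicates 1, 3 and 4 was different: KNP replicate 3 was the highest in 5 genes (HP, HPX, LBP, CRP and ITIH4), KNP replicate 1 in 1 (ORM1) and KNP replicate 4 in 0, while KNP replicate 2 was again the lowest in 5 and the highest in LRG1. The map of brightness-adjusted values shows these numbers.

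**Figure D4:**
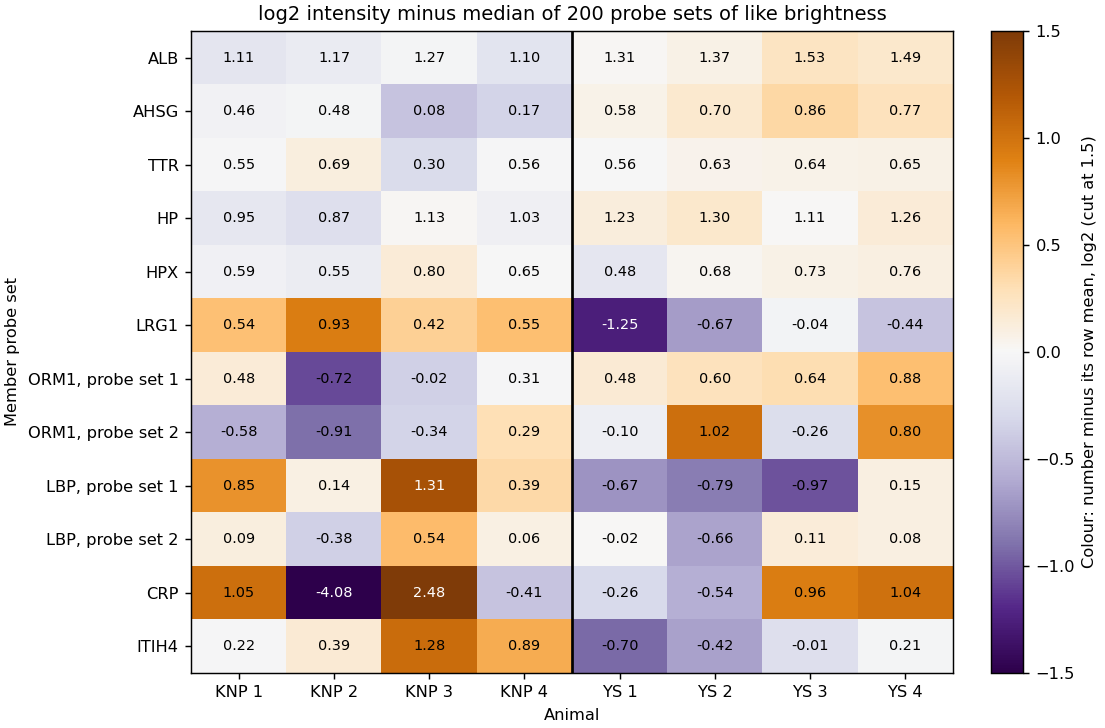
Number in each cell: log2(intensity + 16) of a member probe set minus the median of 200 probe sets of like brightness on the same array, for 4 KNP animals (left) and 4 YS animals (right); colour: that number minus its row mean. KNP replicate 3 reads 2.48 in CRP and 1.31 in LBP, and KNP replicate 2 reads −4.08 in CRP.

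Of the bright members, ALB, HP and HPX followed each other most closely over the 8 arrays, TTR and AHSG less so, and ORM1 least. Each gene was centred on its mean, and the root mean square difference on the log2 scale was taken. It was 0.12 between ALB and HP, 0.14 between ALB and HPX and 0.14 between HP and HPX, where the SD of ALB itself was 0.38. For TTR it ran from 0.17 (ALB) to 0.19 (HP) against these genes. For AHSG it ran from 0.17 (ALB) to 0.28 (HPX) against ALB, HP, HPX and TTR. The brightest ORM1 probe set lay at 0.38 (HP) to 0.46 (TTR) from the other bright members. The genes nearest to ALB in pattern, among 5423 genes with a tested probe set, were APOC3 (0.04) and TF (0.04), both also secreted by liver. AHSG was nearest to ALDH1A1 (0.09) and GSTA1 (0.11), HP to FN1 (0.07) and NFIA (0.08), HPX to CFB (0.06) and METTL13 (0.06), and TTR to the ribosomal protein genes RPS24 (0.06) and RPL5 (0.06). The nearest genes of LRG1 lay farther off, TRPC4AP (0.22) and DPF2 (0.26). LBP was nearest to ACOX3 (0.27) and CRAT (0.31), ITIH4 to SPI1 (0.14) and SOCS6 (0.18), and ORM1 to C8A (0.22) and LOC100517855 (0.23). CRP had the largest distances, with its nearest genes ACAA2 and SULT1A3 at 0.98 and 0.99. This distance grows with a gene's own spread, and the SD over the arrays was 0.72 in LRG1, 0.79 in LBP and 0.49 in ITIH4. It was 0.69 in ORM1 and 1.95 in CRP. This likeness is a description over arrays that share the brightness shift.

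Some genes of other acute phase plasma proteins were also called lower in KNP. Of 12 tested genes of other positive acute phase proteins (19 listed), C3, FN1, FGB and SERPINA1 were called lower, 0 were called higher and 8 were not called, with a median difference of −0.54 as deposited, −0.13 after the brightness adjustment and 0.01 after quantile normalization. C3, the central complement protein, showed −0.60, FN1, fibronectin, −0.57, FGB, fibrinogen beta, −0.60, and SERPINA1, alpha-1-antitrypsin, −0.53, with limma adjusted p of 0.0347 to 0.0479. HAMP, which encodes the iron hormone hepcidin, had the only positive difference of this list, 0.47 (adjusted p = 0.617), and was chosen after its values were seen. Of 6 tested genes of other negative acute phase proteins (6 listed), TF, RBP4 and APOA1 were called lower, 0 higher and 3 were not called, with a median of −0.63 as deposited and −0.15 after quantile normalization. TF, which encodes the iron carrier transferrin, showed −0.70, RBP4, the retinol carrier, −0.66 and APOA1, the main protein of high density lipoprotein, −0.60, with adjusted p of 0.0245 to 0.0362. The 7 genes called in these lists all lay in the brightness range of 15 to 17, where 54.4% of probe sets were called lower.

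Of the cytokine receptors and signal path of the acute phase, 12 of 20 listed genes were tested, and 0 were called in either direction. The median difference was 0.29 as deposited and 0.31 after quantile normalization, beside −0.01 and 0.003 over all probe sets. The smallest p belonged to JAK2, a kinase below cytokine receptors, with 0.71 (SE 0.22, limma adjusted p = 0.167), NR3C1, the glucocorticoid receptor, with 0.54 (SE 0.20, adjusted p = 0.249) and CEBPB, a C/EBP factor, with 0.34 (SE 0.17, adjusted p = 0.372). STAT3 showed 0.34 (SE 0.33, adjusted p = 0.664), and it was chosen after its values were seen. IL6R and SOCS3 were on the array but too dim to be tested. Of 4 tested liver transcription factors 0 were called; HNF4A showed −0.48 (adjusted p = 0.253), FOXA2 0.45 (0.281) and FOXA1 −0.19 (0.742).

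Of 14 receptors and partners of the members, 9 were tested and 0 were called, with a median of 0.21. HMOX2, a haem oxygenase that acts on haem downstream of its uptake, showed 0.61 (SE 0.16, limma adjusted p = 0.106). BLVRA, which reduces the biliverdin made from haem, showed 0.63 (SE 0.25, adjusted p = 0.257), and CD163, the macrophage receptor for haptoglobin bound to haemoglobin, 0.56 (SE 0.36, adjusted p = 0.499).

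Markers of other cell types were measured beside these genes. Summed over the 7 macrophage markers on the array, intensity ran from 24724 to 28806 in KNP and from 18027 to 25968 in YS, and 0 of the 6 tested were called. The 6 neutrophil markers summed to between 481 and 1658 in KNP and between 435 and 770 in YS, with 0 of 4 tested called. The median difference of these 4 dim genes was 1.00, with 3 above 0 and 1, S100A8, below (−0.17). S100A12 and PGLYRP1, too dim to be tested, had lower means in KNP (70.6 and 54.3) than in YS (129 and 67.8). The 7 T and NK cell markers summed to between 847 and 1974 in KNP and between 725 and 1268 in YS, with 0 of 5 tested called. The 8 endothelial markers summed to between 4489 and 5974 in KNP and between 3583 and 5329 in YS, with RAMP2 called higher among 7 tested. Sums of 5 bile duct, 7 stellate cell and 3 red cell markers overlapped between the breeds, and 0 of their 2, 6 and 3 tested members were called. The median difference was 0.44 for macrophage, 0.47 for T and NK cell and 0.16 for endothelial markers. It was 0.52 for bile duct, −0.06 for stellate cell and 0.08 for red cell markers. None of these lists separated the breeds without overlap, and their part in the members' differences was not tested.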

How the data were processed

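Liver RNA of 8 pigs was measured on the Affymetrix porcine array. Deposited values are probe set intensities on a linear scale, made by the authors with GCOS 1.3 per the submitters' processing notes; algorithm and background correction are not stated there. The trimmed mean (percentiles 2 to 98) was between 499.8 and 499.9 on each array. No 2 arrays were identical.

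Intensities were transformed as log2(value + 16); array medians differed by 0.22, and no further scaling was applied. The 124 control probe sets, with names that start with AFFX, were left out of the test, as were the lower 40% of the other 23999 by mean. Other prefixes were not removed, so a probe set whose name starts with RPTR stayed among those tested. The 14399 left were fitted with limma 3.58.1 in R 4.3.3 (lmFit, eBayes with an intensity trend), with breed as the only term and a threshold of 0.05 after Benjamini-Hochberg adjustment. The fit was tested on simulated data. Probe sets were named from the array annotation; all 10 member genes had the same symbol in the gene table of Sscrofa11.1. The files name no genome build, so no coordinates are given.

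In other lists each gene was represented by its brightest probe set, and those past the threshold, or else the 3 with the smallest p, are named. The number of arrays limits the precision. The members and lists were chosen with earlier results of these data known. The replicate numbers name different animals in each breed and did not pair them. Promoter motifs, planned in the design, were not analysed here. Alternatives were pseudocounts of 1 and 64, quantile, median, cyclic loess and brightness-neighbour scaling, other filters, no trend, array weights, a replicate block and each animal left out.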

Additional observations from a re-analysis of the deposited data

How the results depend on the processing

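With all animals as deposited, 3 member probe sets were called lower and 1 higher, 88 and 61 of all probe sets tested, and 7 of 43 genes of the other lists (acute phase proteins, signal path, liver transcription factors and receptors; no cell type markers) lower. Quantile normalization, cyclic loess, brightness neighbours, no filter, no trend and the replicate block each left 0 member probe sets called lower, 0 called higher and 0 list genes called lower. At an unadjusted p under 0.05 the member counts in limma were then between 3 and 7 lower and 2 or 3 higher. The share of all probe sets at that unadjusted threshold was not counted. Of all probe sets, 4 were called lower and 10 higher with quantile normalization, with cyclic loess and with brightness neighbours. Without the filter 11 were lower and 24 higher, and without the trend 5 and 8. With the replicate block 2 were lower and 6 higher; the correlation of same-numbered animals lay between −0.02 and 0.05, no animal correlated best with its own number, and the lost calls do not describe a weaker effect. Median centring left 2 member probe sets (the call of HP was lost), 38 of all probe sets and 4 list genes lower. With the lower 60% left out and with array weights TTR was called too, which made 4 member probe sets lower. Leaving out 1 animal gave between 0 and 4 member probe sets lower and 0 higher, between 3 and 81 of all probe sets lower and between 5 and 48 higher, and between 0 and 7 list genes lower. The low counts of all probe sets came without YS replicate 1, 2, 3 or 4 (6, 9, 3 and 4 lower; 7, 14, 5 and 8 higher). Without a KNP animal between 28 and 81 were lower and between 25 and 48 higher. The cause of these changes was not tested. Among the members and the genes called in any list, the sign turned with quantile normalization in TTR (0.043), HPX (0.11), C3 (0.0045), SERPINA1 (0.016), APOA1 (0.017) and APOH (0.016). It turned in 6 of 12 tested genes of other positive acute phase proteins, 1 of 6 of other negative ones and 5 of 7 hepatocyte markers. With 1 animal left out it turned in CRP, whose difference ran from −1.51 (without KNP replicate 3) to 0.67 (without KNP replicate 2), and in the dimmer LBP probe set, from −0.058 (without YS replicate 2) to 0.31 (without KNP replicate 2). No filter gave the third ORM1 probe set −0.55 (adjusted p = 0.624). Pseudocounts of 1 and 64 kept all 4 member calls. No detection calls were used here, so how far dim probe sets lie above background is unknown.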
